A study of Hydra vulgaris with 5 samples.

Results

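KS1, short for the German for head-specific 1, is a gene of the freshwater polyp Hydra that is known for its expression in ectodermal epithelial cells of the head, at and below the bases of the tentacles. In whole polyps its transcript is known to appear early when a head is rebuilt, and to respond to activators of protein kinase C, which has made it a widely used read-out of head formation. The 6 entries described here are 5 that the tables describe as KS1 or KS1-like and 1 uncharacterized entry, Sc4wPfr_661.g19813, which lies by its number between Sc4wPfr_661.g19812 and Sc4wPfr_661.g19814 on the same scaffold. They are 6 of 46156 entries in the tables. They were chosen by their descriptions and by the high measured level of most of them in the hypostome libraries. The difference between tissues is therefore given as a description without a test.

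MSTRG.21511 and Sc4wPfr_661.g19812 carry the full KS1 name, with the product given as a precursor. MSTRG.21513, Sc4wPfr_661.g19814 and Sc4wPfr_952.1.g9550 are described as KS1-like. The function of Sc4wPfr_661.g19813 is not described. Another 5 entries with KS1 in their description are not among the 6. Of these, MSTRG.26101 held 6 and 8 counts in the hypostome libraries and 18, 27 and 6 in the 0, 4 and 12 h libraries, and Sc4wPfr_661.g19811 held 2, 6, 0, 1 and 0 in the same order. These levels lie far below those of Sc4wPfr_661.g19812, which held 1574, 2937, 429, 301 and 23 counts. Other entries numbered nearby on the scaffold were low in the hypostome, with at most 6 counts in either library for each of those numbered g19805 to g19811, g19815 and g19816. Some were seen in regenerating tissue: Sc4wPfr_661.g19809, described as polycystic kidney disease 1-like 2, held 21, 25 and 37 counts at 0, 4 and 12 h. Its level at 12 h, 39.6 CPM, was above the 24.6 CPM of Sc4wPfr_661.g19812. At 12 h Sc4wPfr_661.g19805 held 24 counts and Sc4wPfr_661.g19810 held 22.

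The libraries came from strain 105, dissociated with Pronase E and made into 3′ libraries of single cells with the SureCell kit of Bio-Rad. The 2 hypostome libraries hold the mouth-bearing tip of the head. The other 3 hold tissue of bisected polyps regenerating a hypostome, with 1 library each at 0, 4 and 12 h. The labels give no age, and do not say how many polyps were pooled or whether the hypostome libraries came from separate animals, so their spread may be technical. In a summed library, fewer cells of a type and less RNA per cell cannot be told apart.

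The libraries held 1008 to 4411 barcodes and 362790 to 2713553 counts. Most barcodes were shallow in the hypostome and 12 h libraries: 898 of 1008 in hypostome 1, 2222 of 2390 in hypostome 2 and 4347 of 4411 at 12 h had under 200 detected genes, against 614 of 2946 at 0 h and 456 of 3238 at 4 h. Levels are therefore given in counts per 1000000 (CPM) of a library or of a depth class within it. The shallow class holds barcodes with under 200 detected genes, the middle class those from 200 to below 500, and the deepest class those with 500 or more. Intervals cover counting error only. The ectodermal PPOD1 peroxidases and related epithelial markers, 14 entries in all, together made up 0.130% to 0.286% of counts in the hypostome, 0 h and 4 h libraries but 0.00118% at 12 h.

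Over all barcodes, the 6 entries together took 11740 CPM in hypostome 1 and 9361 CPM in hypostome 2. The regenerating libraries gave summed levels of 797 CPM (0 h), 340 CPM (4 h) and 35.3 CPM (12 h). The hypostome libraries stood above all 3 regenerating libraries, and the ratio of the means was 27.0. It was 56.2 without the 0 h library and 18.6 without the 12 h library.

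Of the KS1 entries, Sc4wPfr_661.g19812 was the most abundant, at 4339 and 3525 CPM in the hypostome libraries and 272, 111 and 24.6 CPM in those of 0, 4 and 12 h. MSTRG.21511, with the same description, measured 697, 480, 21.6 and 11.1 CPM in the first 4 of these libraries and had 0 counts in the last, where 3 counts would be 3.21 CPM. Both were ordered alike over the libraries. For both, hypostome 1 lay above hypostome 2, with counting intervals that did not overlap. These were 614 to 789 and 434 to 530 CPM for MSTRG.21511.

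Among the KS1-like entries, MSTRG.21513 stood at 2293 and 1828 CPM in the hypostome libraries and at 115, 66.0 and 4.28 CPM over the regeneration times. Sc4wPfr_661.g19814 had 877, 796, 119, 37.6 and 3.21 CPM. Sc4wPfr_952.1.g9550 was rare everywhere, with 19.3 and 24.0 CPM in the hypostome, 13.3 CPM in the 0 h library, 10.3 CPM in the 4 h library and 0 counts in the last, from at most 28 counts in a library. The uncharacterized Sc4wPfr_661.g19813 reached 3514 and 2708 CPM in the hypostome, second in level to Sc4wPfr_661.g19812, and 257, 104 and 3.21 CPM at 0, 4 and 12 h.

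Over all barcodes, each of the 6 lay above every regenerating library in both hypostome replicates, as did 13.3% of entries with at least 10 counts. The same was true of all 6 in barcodes under 200 genes, where the background was 13.8%, and in the middle class, where it was 12.3%. In the deepest class it was true of 5, beside 12.9% of all entries, and in the middle and deepest classes together also of 5, beside 19.8%. In the deepest class Sc4wPfr_952.1.g9550 had 0 counts in hypostome 1 and 1 in hypostome 2. Since the hypostome level was used to choose the 6, these counts are not a result about them.

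**Figure D1:**
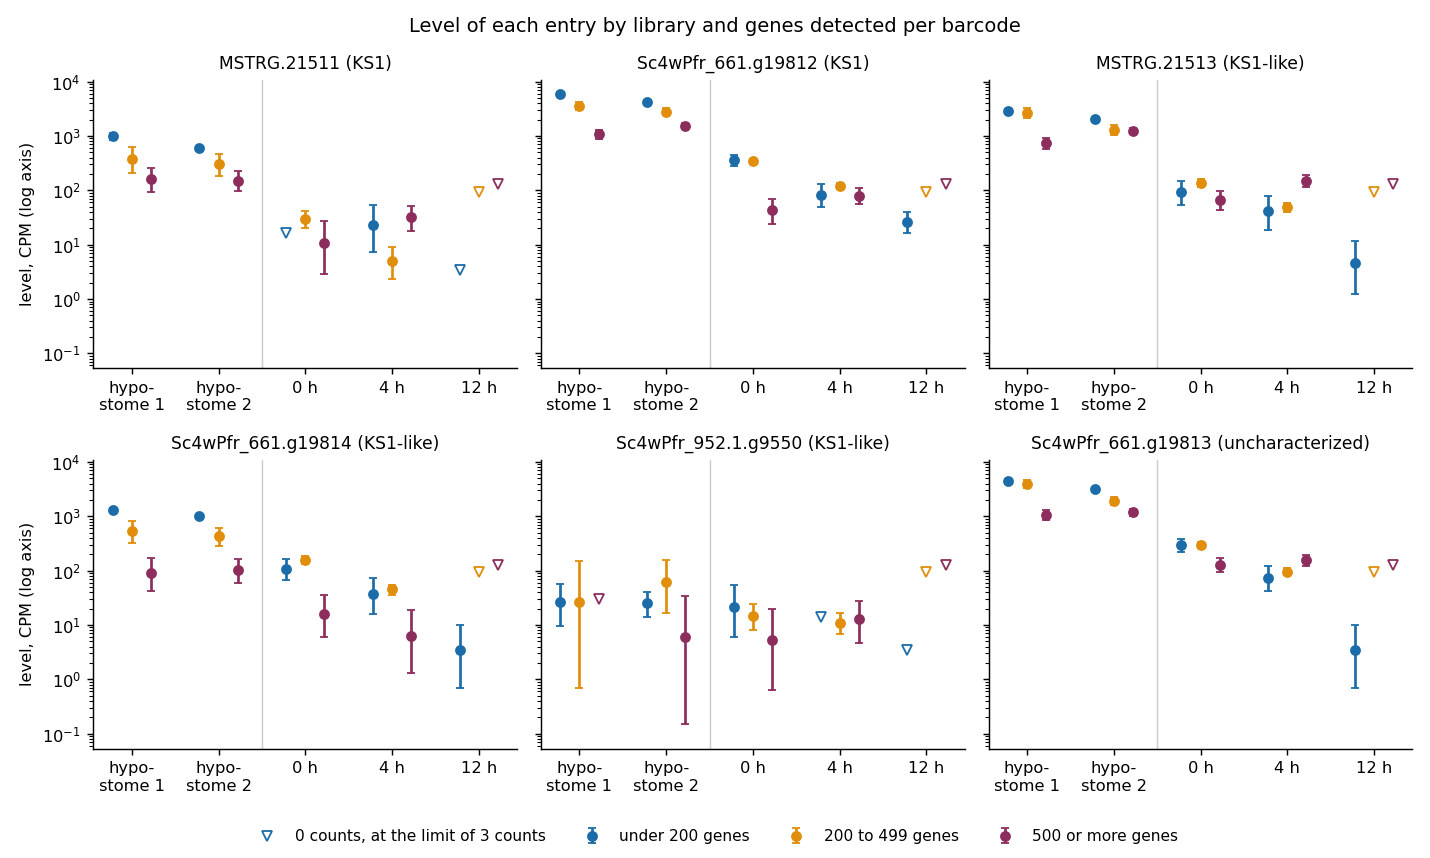
Level of each of the 6 entries in CPM (log axis) in the 5 libraries, coloured by the number of genes detected per barcode. Bars are 95% exact Poisson intervals for counting error, and open triangles mark 0 counts, drawn at the level that 3 counts would have. In both hypostome libraries the level of Sc4wPfr_661.g19812 falls from the shallow to the deep class, from 5900 to 1075 CPM in hypostome 1.

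The level in the hypostome depended on the depth of the barcodes. In hypostome 1 the 6 entries together measured 15644 CPM in barcodes under 200 genes, 11063 CPM in the middle class and 3124 CPM in those with 500 or more. In hypostome 2 the same classes gave 11053, 6787 and 4210 CPM. Both hypostome libraries therefore ran in 1 direction, with the lowest level in the deepest barcodes.

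The regenerating libraries did not fall at each step, though at 0 h the deepest class was again the lowest. At 0 h the classes gave 875, 976 and 270 CPM, and at 4 h 257, 327 and 435 CPM. At 12 h all 33 counts lay in barcodes under 200 genes, and the 64 deeper barcodes held 0, where 3 counts would be 54.3 CPM. That limit lies above the 37.5 CPM of the shallow class, so no order can be read at 12 h. At 4 h, 146 of the 206 counts in the deepest class came from 1 barcode. Without it the class measured 128 CPM, below the 257 and 327 CPM of the other classes.

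Barcodes under 200 genes were compared with those of 200 or more in the same library by the edgeR quasi-likelihood test with the library as a block. Of the 6 entries, 4 had enough counts to be tested, and all 4 were nominally higher in shallow barcodes, but 0 passed the Benjamini-Hochberg threshold of 0.05. Over all entries tested, 2.50% passed and 1.82% passed as higher in shallow barcodes. Of the 4, 3 had an unadjusted p under 0.05, as did 424 of all 1918 entries tested. DESeq2 called 2 of the 4 as higher, Sc4wPfr_661.g19812 with an adjusted p of 0.0407 and Sc4wPfr_661.g19814 with 0.0374, where it called 11.4% of all entries and 8.47% as higher.

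The log2 fold change, shallow over deep, was 1.14 ± 0.35 (SE) for Sc4wPfr_661.g19812, with an edgeR adjusted p of 0.103. For Sc4wPfr_661.g19814 it was 1.59 ± 0.48 with an adjusted p of 0.0955, for Sc4wPfr_661.g19813 it was 0.89 ± 0.30 with an adjusted p of 0.128, and for MSTRG.21513 it was 0.61 ± 0.32 with an adjusted p of 0.303. The median of the 4 was 1.01 beside 0.05 for all 1918 entries tested. With barcodes of 500 or more genes as the deep class, 3 of the 4 passed as higher in shallow barcodes, beside 19.9% of all entries in either direction and 15% as higher. Sc4wPfr_661.g19814 then had a log2 fold change of 3.70 ± 0.33 with an edgeR adjusted p of 0.000247.

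Other gene lists give the setting for these values in the first comparison. Of the 14 ectodermal entries 4 were tested and 0 passed, with a median log2 fold change of 0.89. Among the head and tentacle genes 6 of 40 were tested, 0 passed and the median was 0.17. The 7 tested endodermal entries, of 36, also gave 0 calls and a median of 0.51. Of 12 entries of the stinging-cell (nematocyte) lineage 2 were tested and 1, MSTRG.8087, was lower in shallow barcodes, at a log2 fold change of -2.92 with an edgeR adjusted p of 0.0385. Of the 72 gland cell entries 11 were tested and 1 was lower in shallow barcodes, with a list median of 0.92. The 6 neuron entries tested, of 81, gave 0 calls and a median of -0.38, the interstitial list had 1 of 14 tested with 0 calls, and none of the 13 protein kinase C entries had enough counts. The lists were drawn up with earlier results of these data known.

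A further fit asked whether the class effect differed between tissues. For Sc4wPfr_661.g19814 the log2 effect of shallow over deep was 2.72 in the hypostome and 0.20 in regenerating tissue, a difference of 2.52 ± 0.44 (SE) with an edgeR adjusted p of 0.0416. It was the 1 entry of the 4 tested that passed, beside 0.521% of all entries. With its counts summed with those of MSTRG.21513, a KS1-like entry seldom found in the same barcode, the difference was 1.49 ± 0.43 with an edgeR adjusted p of 0.235. The deep class was not alike between tissues. Barcodes of 500 or more genes gave 99547 of its 136698 counts in hypostome 1, but 374455 of 1392466 at 0 h. In such barcodes Sc4wPfr_661.g19814 measured 16.0 CPM at 0 h, beside 108 in shallow ones. At 4 h it measured 6.34 CPM beside 36.7. The part of this in the tissue difference was not tested.

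The make-up of the counts was nearly the same in the shallow barcodes of the hypostome replicates. Sc4wPfr_661.g19812 took 37.7% of the counts of the 6 in hypostome 1 and 37.6% in hypostome 2, Sc4wPfr_661.g19813 took 29.0% in each and MSTRG.21513 took 18.6% in each. Sc4wPfr_661.g19814 made up 8.17% and 9.28%. In the deepest class its share was 2.89% and 2.45%, while that of MSTRG.21513 was 23.8% and 29.2%. Sc4wPfr_661.g19812 stayed near its shallow share, at 34.4% and 36.3%.

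**Figure D2:**
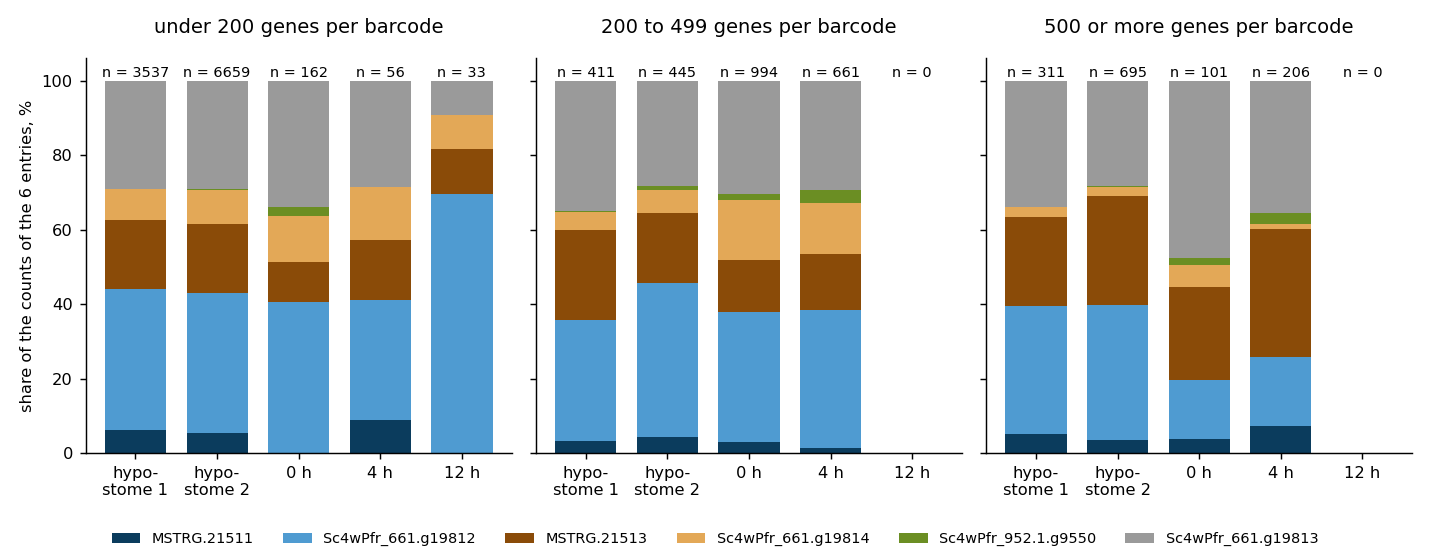
Share of each entry in the counts of the 6 (percent), by library and by genes detected per barcode, with the number of counts above each bar. The hypostome bars are alike in barcodes under 200 genes, and Sc4wPfr_661.g19814 shrinks to 2.89% and 2.45% of the hypostome counts in barcodes with 500 or more genes.

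Most hypostome barcodes held a count of the 6. Without any adjustment for depth, 96.4% of barcodes in hypostome 1 and 92.7% in hypostome 2 had at least 1 count, where the regenerating libraries had 28.7%, 17.1% and 0.589%. After every barcode was thinned to 100 counts, the shares were 73.3% (95% exact binomial interval 70.5 to 76.0) and 63.6% (61.6 to 65.5) in the hypostome, then 8.45% (7.47 to 9.52), 3.18% (2.60 to 3.84) and 0.371% (0.212 to 0.602) over the regeneration times. Thinning left out 103 shallower barcodes at 12 h and 0 elsewhere. Thinning kept the libraries in the same order.

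Barcodes that carried markers of different cell types were few, and their levels were as follows. In barcodes with at least 3 ectodermal entries the 6 together measured 17237 CPM in hypostome 1 (6 barcodes) and 10536 CPM in hypostome 2 (25 barcodes). The remaining barcodes gave 11629 and 9298 CPM. The 25 barcodes of hypostome 2 held 446 counts of the 6. In that library 1 barcode alone held 279, beside 20 ectodermal counts, and its part in this level was not tested. Barcodes with at least 3 nematocyte entries, a cell type that should lack KS1, gave 398 CPM in hypostome 1 (5 barcodes) and 961 CPM in hypostome 2 (10 barcodes), where the remaining barcodes gave 12318 and 9688 CPM. In barcodes with at least 3 endodermal entries the levels were 1139 and 1223 CPM, from 2 and 14 barcodes. Barcodes with at least 3 neuron entries lay below the others in both hypostome libraries, by unlike amounts. They measured 2361 CPM in hypostome 1 (16 barcodes) beside 12882, and 8102 CPM in hypostome 2 (23 barcodes) beside 9474. The 23 barcodes of hypostome 2 held 552 counts of the 6. Barcodes of that library with 279 and 153 counts of the 6 held 4 and 5 neuron counts. Their part in the level of 8102 CPM was not tested. Barcodes with at least 3 head and tentacle entries lay below the others, at 5885 CPM beside 12697 in hypostome 1 and 5751 CPM beside 9863 in hypostome 2. Their median depths were 1053 and 2141 counts beside 250 and 270, and the part of depth in these levels was not tested.

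The share of barcodes with a count was also compared after thinning. A count of the 6 was found in 1 of 5 nematocyte-rich barcodes of hypostome 1 and in 2 of 10 of hypostome 2, with median depths of 1843 and 2432 counts. The 95% intervals were 0.505% to 71.6% and 2.52% to 55.6%. In the other barcodes the share was 73.6% and 63.7%, at median depths of 251 and 270 counts. Gland-rich barcodes, 232 in hypostome 1 and 1039 in hypostome 2, were shallow and gave 72.8% and 62.3%, close to the other barcodes of their library. The share thus hardly differed between gland-rich barcodes and the rest, which may hold up to 2 gland entries. The part of free RNA in this was not tested.

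Co-detection of the 6 in the same barcodes was compared with the number expected from their shares within strata of library and depth. Over 13993 barcodes, 13 of the 15 pairs were found together at 0.930 to 1.88 times the expected number, and the 4 pairs at 1.32 times or more all held the rare Sc4wPfr_952.1.g9550. Sc4wPfr_661.g19812 and Sc4wPfr_661.g19813 were found together in 1159 barcodes where 1171 were expected, an odds ratio of 0.95. MSTRG.21513 and Sc4wPfr_661.g19813 met in 647 barcodes beside 613 expected, an odds ratio of 1.18. The rare Sc4wPfr_952.1.g9550 occurred with Sc4wPfr_661.g19812 in 30 barcodes beside 19.2 expected. Barcodes of a library share their source, so these are descriptions of the libraries.

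Some pairs with the same description behaved differently. MSTRG.21513 and Sc4wPfr_661.g19814, both KS1-like, were detected in 1330 and 936 barcodes but together in 3, where 234 were expected, an odds ratio of 0.0062. MSTRG.21511 and Sc4wPfr_661.g19812, both KS1, were detected in 291 and 2675 barcodes and together in 31, where 162 were expected, an odds ratio of 0.077. The first pair met in 1 barcode of hypostome 1 where 80.1 were expected, in 2 of hypostome 2 where 143 were expected, and in 0 at 0 h where 7.79 were expected. The second met in 16 and 12 hypostome barcodes, beside 58.8 and 99.8 expected. At 0 h and 4 h fewer than 3 barcodes with both were expected for the second pair, which is too few to show a shortage. MSTRG.21513 and the rare Sc4wPfr_952.1.g9550 are also both KS1-like but showed no shortage. They met in 13 barcodes beside 9.82 expected, an odds ratio of 1.47.

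**Figure D3:**
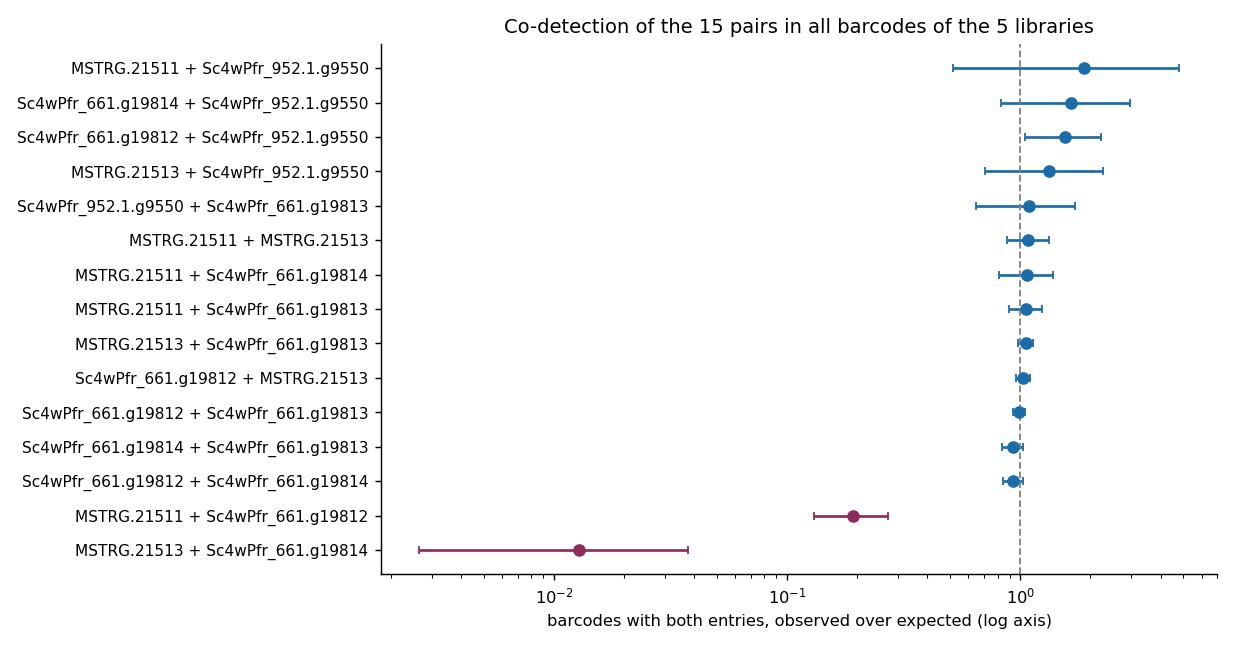
Barcodes with both entries of a pair, observed over expected (log axis), for the 15 pairs over all barcodes. Bars are 95% Poisson intervals of the observed number, and the dashed line marks the expected number. The pair MSTRG.21513 and Sc4wPfr_661.g19814 lies near 0.0128 and the pair MSTRG.21511 and Sc4wPfr_661.g19812 near 0.191, while the 13 other pairs lie between 0.930 and 1.88.

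Such near-exclusion was rare in the tables. Among 642836 pairs of entries with at least 50 joint barcodes expected, 58 had an odds ratio under 0.1, or 0.00902%. Of these 58, 45 joined entries of the same description and 52 joined an identifier starting with MSTRG to one starting with Sc4wPfr. Of the 3991 pairs that shared a description naming a gene, 1.10% were under this limit. Both KS1 pairs with a shortage are of this kind: the same description and 1 identifier of each type. So are MSTRG.21513 and Sc4wPfr_952.1.g9550, which showed no shortage but had fewer than 50 joint barcodes expected. Whether the 2 identifiers of a pair with a shortage stand for 1 gene in the reference used for counting was not tested.

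The split followed the number of counts in the barcode. For MSTRG.21513 and Sc4wPfr_661.g19814, all 537 barcodes with 2 counts of the pair and all 267 with 3 to 4 counts had them in 1 entry. MSTRG.21513 took 50.9% of counts in barcodes with 1 count of the pair, 65.7% with 2, 78.6% with 3 to 4, 89.1% with 5 to 9 and 100% in the 13 barcodes with 10 or more. The share of MSTRG.21513 thus climbed with every step in the number of counts.

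For MSTRG.21511 and Sc4wPfr_661.g19812 the division was less complete. All 776 barcodes with 2 counts and all 559 with 3 to 4 counts again had them in 1 entry, but 22 of 117 barcodes with 5 to 9 counts and 9 of 15 with 10 or more held both. For comparison, Sc4wPfr_661.g19812 and Sc4wPfr_661.g19813 were both present in 267 of 893 barcodes with 2 counts of that pair and in 31 of 32 with 10 or more. Sc4wPfr_661.g19812 took 55.6% of that pair's counts in barcodes with 1 count, 56.3% in those with 5 to 9 and 49.6% in those with 10 or more. In that last group it took 52.7% and 53.5% in the hypostome libraries, 9 counts beside 32 of Sc4wPfr_661.g19813 at 0 h (2 barcodes) and 35.6% at 4 h (3 barcodes).

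**Figure D4:**
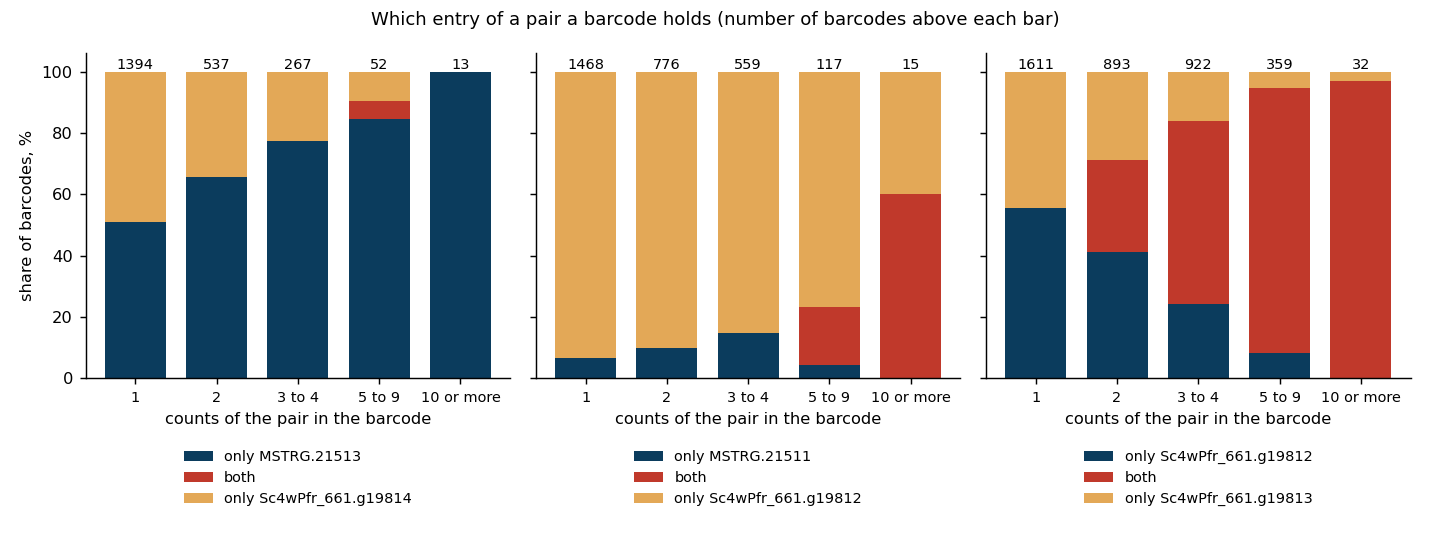
Share of barcodes (percent) that hold only the first entry, both, or only the second entry of a pair, by the number of counts of the pair in the barcode, with barcode numbers above the bars. In the left panel all 13 barcodes with 10 or more counts hold MSTRG.21513 alone, and in the right panel 31 of 32 such barcodes hold both entries.

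Since counting may have divided reads between like entries, which was not tested, single-entry levels within these pairs are uncertain and their sums are given too. MSTRG.21511 and Sc4wPfr_661.g19812 summed to 5036 and 4005 CPM in the hypostome and to 293, 122 and 24.6 CPM over the regeneration times. MSTRG.21513 and Sc4wPfr_661.g19814 summed to 3170 and 2624 CPM and to 233, 104 and 7.48 CPM. Within the second pair the share of MSTRG.21513 was 72.3% in hypostome 1, 69.7% in hypostome 2, 49.2% at 0 h and 63.7% at 4 h. In hypostome 1 it was 69.5%, 83.2% and 89.2% from the shallow to the deep class, and in hypostome 2 it was 66.7% in the shallow and 92.3% in the deepest class. The depth class effect of the summed KS1 pair was 1.17 ± 0.35 (SE, log2) with an edgeR adjusted p of 0.0885, beside 1.14 for Sc4wPfr_661.g19812 alone. That of the summed KS1-like pair was 0.84 ± 0.34 with an adjusted p of 0.182, between the 0.61 of MSTRG.21513 and the 1.59 of Sc4wPfr_661.g19814.

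Few barcodes held more than 3 of the 6 entries. The number expected without the shortage of the 2 pairs was not computed. In hypostome 1, 455 of 1008 barcodes held 2 different entries, 250 held 3, 13 held 4 and 0 held more. In hypostome 2, 996 of 2390 held 2, 383 held 3, 10 held 4 and 0 held more. At 0 h, 722 of 2946 barcodes held 1 entry and 108 held 2. At 12 h, 26 of 4411 barcodes held 1 and 0 held 2.

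The spread of counts over barcodes was set beside that of entries of like level, within a factor of 1.5. In shallow barcodes of hypostome 1 the variance of MSTRG.21511 was 3.06 times that of Poisson counts at the barcodes' depths, beside a median of 1.21 for 96 entries of like level. The factor was 2.16 for MSTRG.21513, beside a median of 1.24. For Sc4wPfr_661.g19812 it was 1.73 beside 1.29, with 77.8% of 9 like entries below it. For Sc4wPfr_661.g19813 it was 1.51 beside 1.29, below the upper quartile of 1.73 over 12 like entries and so within their ordinary range. In the deepest class of hypostome 2 it reached 71.8 for Sc4wPfr_661.g19812 and 72.8 for MSTRG.21513, beside medians of 3.49 and 3.21, and was 1.67 for Sc4wPfr_661.g19814 beside 1.54. Those large factors rest on a few barcodes. MSTRG.21511, MSTRG.21513, Sc4wPfr_661.g19812 and Sc4wPfr_661.g19814 belong to the nearly exclusive pairs, so their single-entry factors are uncertain too. The spread of the summed pairs was not computed.

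In the deepest class, a few barcodes carried much of the signal. In hypostome 2, 2 of 50 barcodes held 62.2% of the counts, and in hypostome 1, 1 of 42 held 32.2%. Without the highest barcode the class measured 2562 CPM in place of 4210 in hypostome 2 and 2140 CPM in place of 3124 in hypostome 1. Barcodes with at least 10 counts of the 6 and at least 5% of their counts in them numbered 17 in hypostome 1, 3 in hypostome 2 and 0 in the regenerating libraries. Of these 20, all held Sc4wPfr_661.g19813, 19 held Sc4wPfr_661.g19812, 19 held MSTRG.21513, 9 held MSTRG.21511 and 2 held Sc4wPfr_661.g19814.

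Across the series, 5 barcodes held at least 50 counts of the 6. The highest, in hypostome 2, had 279 of 2711 counts: 94 of Sc4wPfr_661.g19812, 92 of MSTRG.21513, 81 of Sc4wPfr_661.g19813 and 12 of MSTRG.21511. Another of hypostome 2 had 153 of 1820, and in hypostome 1 there were barcodes with 100 of 966 and 55 of 1887. The last, at 4 h, had 146 of 3721, with 54 of Sc4wPfr_661.g19813, 53 of MSTRG.21513, 24 of Sc4wPfr_661.g19812 and 15 of MSTRG.21511. Sc4wPfr_661.g19814 and Sc4wPfr_952.1.g9550 had 0 counts in all 5. In the barcode at 4 h Sc4wPfr_661.g19813 and MSTRG.21513 exceeded Sc4wPfr_661.g19812, as they also did in the hypostome 1 barcode with 55 counts, while in the other 3 Sc4wPfr_661.g19812 was the highest. Whether the barcode at 4 h shares its sequence with another library was not tested.

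Those 5 barcodes were compared with the other barcodes of at least 500 genes in their library, after the counts of the 6 were removed. The head and tentacle list stood at 3821, 6928, 6990, 10198 and 4755 CPM beside 1746 to 1968 CPM in the others. However, 46 of its 64 counts in these barcodes belonged to 1 entry, the annexin MSTRG.24170. Another annexin of the list, Sc4wPfr_828.1.g12787, has the same description and was seldom found in the same barcode (odds ratio 0.0229). Single-entry levels within that pair are uncertain. Without MSTRG.24170, 18 counts were left. The list then measured 2183 and 3464 CPM in the hypostome 1 barcodes beside 1222 CPM in the others, and 1645 and 2999 CPM in those of hypostome 2 beside 1217 CPM. At 4 h it measured 559 CPM, from 2 counts, beside 839 CPM, so it was not higher there. Endodermal entries had 0 counts in all 5. Nematocyte entries had 0 counts in 4, while the barcode with 55 counts in hypostome 1 held 72 of them, or 39301 CPM beside 16201 CPM in the others. Ectodermal entries measured 8188, 2309, 8224, 0 and 5035 CPM, beside 331 to 1518 CPM.

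Outside the 6, 18 entries had at least 3 counts in each of the 5 barcodes, and they were ranked by their smallest ratio to the other deep barcodes. MSTRG.4804, described as a striated-muscle-like myosin heavy chain, held 10 to 50 counts in each and was at least 5.34 times as high as in the other deep barcodes once 20 CPM were added to those. MSTRG.8327, an adenylyl cyclase-associated protein that acts on actin filaments, was at least 2.14 times as high, and the annexin MSTRG.24170 named above, from a family of membrane-binding proteins, also at least 2.14 times. The tropomyosin MSTRG.6516, which binds along actin filaments, followed with 1.97. MSTRG.8327 and MSTRG.24170 each have a partner of the same description that was seldom or never found in the same barcode. These are Sc4wPfr_2253.g19963 (odds ratio 0) and Sc4wPfr_828.1.g12787 (0.0229). Single-entry levels of MSTRG.8327 and MSTRG.24170 are therefore uncertain too. The barcodes were picked for their counts of the 6, and these entries were ranked in the same barcodes, so this is a description. Over whole libraries MSTRG.4804 measured 1034, 876, 662, 430 and 0 CPM, so it differed far less between hypostome and 0 h than the 6 did.

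**Figure D5:**
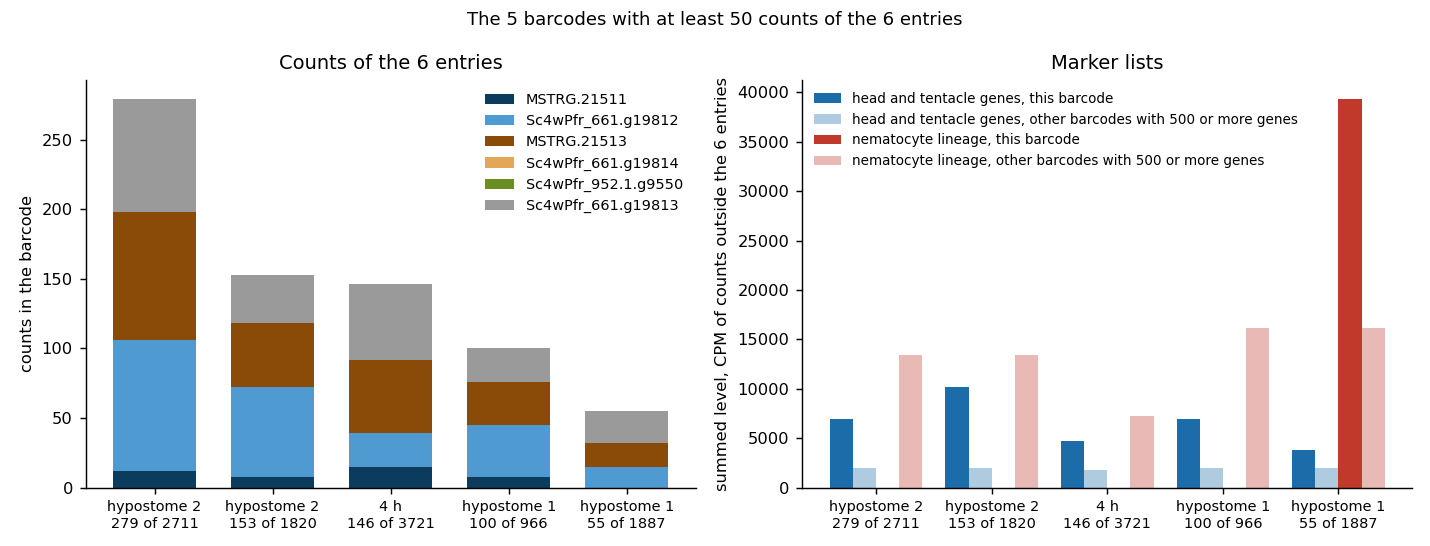
Left, counts of the 6 entries in the 5 barcodes with at least 50 of them, with the library and the counts of the barcode below each bar. Right, summed level (CPM of counts outside the 6) of the head and tentacle list and the nematocyte list in each of these barcodes and in the other barcodes with 500 or more genes. The annexin MSTRG.24170 gives 46 of the 64 counts of the head and tentacle list in these barcodes, and without it the list is lower at 4 h than in the other barcodes (559 beside 839 CPM). In hypostome 1, 1 barcode is high in nematocyte entries.

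Over regeneration, each time point had 1 library, so ratios carry counting error only. In barcodes with 200 or more genes the 6 together stood at 786 CPM at 0 h (1095 counts) and 347 CPM at 4 h (867 counts), a ratio of 0.442 (interval 0.404 to 0.483). The median ratio of all entries with at least 50 counts was 0.646. Of the 6 entries 5 had that many counts, and 4 of these were at least 2-fold lower at 4 h, beside 19.2% of all entries. Over all barcodes 3 of 5 were, beside 19.7%. By class it was 2 of 2 in shallow barcodes, beside 29.6%, 4 of 4 in the middle class, beside 26.4%, and 0 of 3 in the deepest, beside 4.74%.

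The entry MSTRG.22171, which has no match in the descriptions, took 13.1% of those counts at 0 h and 35.6% at 4 h. With it left out of the totals the ratio was 0.596, and 1 of the 5 entries, Sc4wPfr_661.g19814 with a ratio of 0.424, was still 2-fold lower. The median and the share of all entries were not computed with these totals. The median of 0.646 given above is therefore not a like background for 0.596. In the deepest barcodes alone the ratio of the sum was 1.61 (1.27 to 2.07). It was 0.701 (0.487 to 1.01) without the highest barcode of each library. The direction at 4 h in deep barcodes thus turned on 1 barcode.

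At 12 h the 6 were low in every class. Over all barcodes there were 33 counts beside 1257 at 0 h, a ratio of 0.0443 (0.0303 to 0.0625), and 23 of the 33 belonged to Sc4wPfr_661.g19812. Sc4wPfr_661.g19813 had 3 counts beside 405, a ratio of 0.0125 (0.00257 to 0.0368). Of 4 entries with at least 50 counts all 4 were at least 2-fold lower, beside 51.6% of all entries, whose median ratio was 0.467. In barcodes with 200 or more genes the sum was 0 counts at 12 h. At a floor of 3 counts in the class it was 14.5-fold lower than at 0 h. The counting interval of the 0 counts reached down to 11.8-fold lower. In this class the median ratio of all entries was 0.933, and 19.6% of entries were at least 2-fold lower. There 4 of 4 entries were 2-fold lower at that floor. Over all barcodes of the library, the PPOD1 peroxidase MSTRG.8978 of the ectodermal list was low at 12 h too. It measured 535 CPM at 0 h and 3.21 at 12 h. Tropomyosin MSTRG.6516 measured 832 and 10.7 CPM, and MSTRG.4804 measured 662 and 0 CPM. The last 2 were named for their level in the 5 barcodes above, not as epithelial markers. The part of the 12 h library's cell make-up in these low levels was not tested.

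Head genes of other families differed less between the hypostome and 0 h libraries. The transcription factor Sp5, Sc4wPfr_224.1.g33422, which is known to restrain head formation in Hydra, measured 66.2 and 62.4 CPM in the hypostome and 25.4, 41.6 and 9.62 CPM over the regeneration times. MSTRG.6358, described as TCF3 and so related to the factor that carries Wnt signals into the nucleus, measured 176, 142, 95.7, 59.0 and 42.8 CPM. An OTX2-like homeobox entry, MSTRG.23836, had 96.5, 62.4, 83.0, 38.3 and 3.21 CPM. Their co-detection with any of the 6 gave odds ratios of 0.92, 1.15 and 0.88, beside a median of 1.04 over 4333 entries. The list of 40 head and tentacle entries took 0.217% and 0.201% of hypostome counts, and 0.211%, 0.126% and 0.0391% over the regeneration times.

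Across the 15 sums of library and depth class, 5 entries followed the summed level of the 6 most closely in log2(CPM + 10). MSTRG.9012, a tetratricopeptide repeat entry, had a Pearson r of 0.961, MSTRG.25699, described as a mitochondrial methionyl-tRNA entry, 0.959, Sc4wPfr_892.g33691, with no match, 0.956, and the uncharacterized Sc4wPfr_85.g874 and MSTRG.15171 0.951 and 0.948. Among 2084 entries 34 reached 0.9 and the median was 0.32. The sums share libraries and depth, so this is a description. Sc4wPfr_892.g33691, the most abundant of the 5, measured 753 and 682 CPM in the hypostome, and 270, 75.9 and 25.7 CPM over the regeneration times.

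Within barcodes, the 10 entries most often found with any of the 6 had odds ratios of 2.18 to 3.01. They were taken only from the 1550 of 4333 entries with an odds ratio above 1 in both hypostome libraries. The 95th percentile was 1.46, but over all 4333, so it is not a like background. All 10 were sparse, in 104 to 211 barcodes each. The highest, Sc4wPfr_177.1.g6126, a retrotransposon-like entry, was seen in 18 barcodes with a count of the 6 beside 13.4 expected. MSTRG.11438, with no match, was seen in 86 beside 74.9, and was the 1 entry of the 10 that was highest in the hypostome, at 55.1 and 72.0 CPM beside 19.6 at 0 h. Nearly every hypostome barcode held a count of the 6, so co-detection there could hardly exceed the expected number. Except for MSTRG.11438, each of the 10 had an infinite odds ratio in both hypostome libraries and so passed the filter. Most of them were highest at 12 h, where the 6 were low.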

How the data were processed

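The authors deposited unnormalized whole-number counts, 1 for each entry and barcode. The tool kallisto 0.46.1 is named in the submitters' processing notes. The build, and whether counts are molecules or reads, are not given in the sources used here. A repeated header row was dropped, and 46156 entries were kept apart. The 6 entries and the gene lists were chosen with earlier results of these data known. All deposited barcodes were used, no doublet caller was run, and classes were cut at 200 and 500 detected genes. Intervals are exact (95%) and cover counting error only, with a floor of 3 counts. The depth class test used edgeR 4.0.16 (R 4.3.3) with TMM, filterByExpr and a library term on 10 sums, leaving 4 residual degrees of freedom, and DESeq2 1.42.0 as an alternative. The test was checked on simulated counts. Co-detection used Mantel-Haenszel odds ratios over strata of library and genes (limits 50, 100, 200 and 500). Standard errors of edgeR log2 fold changes were derived from the F statistics. Named genes are the 6 entries, the 10 most co-detected, the 5 most correlated and listed genes of at least 50 CPM. The entries high in the barcodes with the most counts, and other KS1-named entries, were chosen after their values were seen. The tables carry no barcode sequences, so barcodes shared by libraries were not counted.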

Additional observations from a re-analysis of the deposited data

Results flagged for a closer look

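The effect of depth class on Sc4wPfr_661.g19814 differed between the tissues: the log2 difference, hypostome minus regenerating, was 2.52 ± 0.44 (SE) with an edgeR adjusted p of 0.0416. The term was added after the data had been seen. The call was lost when the counts of Sc4wPfr_661.g19814 and MSTRG.21513 were summed, at 1.49 ± 0.43 with an edgeR adjusted p of 0.235. In CPM, the shallow level over the deep level was 6.03 in hypostome 1 and 5.26 in hypostome 2, and 0.901 at 0 h and 0.973 at 4 h. At 12 h the deep barcodes held 0 counts. Deep here means 200 or more genes, a class with more of its counts in barcodes of 500 or more genes in the hypostome. In those barcodes alone the entry measured 16.0 CPM at 0 h and 6.34 CPM at 4 h, beside 108 and 36.7 CPM in shallow ones.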

How the results depend on the processing

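The number of entries called between shallow and deep barcodes, 48, changed with most settings. It was 367 with library totals in place of TMM, 29 with no gene filter, 206 with DESeq2, 399 against barcodes of 500 or more genes, 20 with classes by total counts and 0 in the regenerating libraries alone. With no replicate block it was also 0, where 141 entries had an unadjusted p under 0.05. Leaving out 1 library gave 0 to 163: 163 without 12 h, 3 without hypostome 1, and 0 without hypostome 2, 0 h or 4 h, where 220, 330 and 407 entries had an unadjusted p under 0.05. The regenerating libraries alone had 249 such entries. Library totals shifted the median log2 change of all entries from 0.05 to -0.42. MSTRG.21513 reversed to -0.13 in the regenerating libraries alone. The cause was not tested.

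Without MSTRG.22171 in the totals the hypostome level in shallow barcodes, 13348 CPM, was 17035 CPM, and the 4 h ratio was 0.596. Leaving out 1 hypostome library gave 11053 to 15644 CPM. The tissue ratio, 27.0, was 31.0 by medians and 18.6 to 56.2 without 1 library, 56.2 being without 0 h and 18.6 without 12 h. The 4 h ratio was 0.293, 0.335 and, reversed, 1.61 from the shallow to the deep class, and 0.379 without the highest barcode of each library. The 12 h ratio, 0.0690 at the floor, was 0.0959 and 0.479 in the middle and deep classes, where 12 h had 0 counts.

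Requiring 2 counts, the odds ratio of MSTRG.21513 and Sc4wPfr_661.g19814 was 0, and 0.0048 to 0.0066 without 1 library. That of MSTRG.21511 and Sc4wPfr_661.g19812 was 0.245, was 0.420 in barcodes with 200 or more genes, and ranged from 0.065 to 0.139 without 1 library, 0.139 being without hypostome 2. For Sc4wPfr_661.g19812 and Sc4wPfr_661.g19813 it was 1.18 in barcodes with 200 or more genes, and 0.916 to 1.18 without 1 library. The mean thinned share in the hypostome, 68.4%, was 94.6% unthinned, 45.7% at 50 counts and 87.0% at 200, and 63.6% to 73.3% without 1 library.

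No paired analysis was possible because the sample titles number only the hypostome libraries. Some column names carry a 1 or 2 that the labels do not explain, and each time has 1 library. Removing barcodes shared between libraries was not run, since the tables hold no barcode sequences. The settings with pairs summed, with the interaction, without the highest barcode, by single class, of the head and tentacle list without MSTRG.24170, and without 1 hypostome library for levels and shares were chosen after seeing the data.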
